A study of Bos indicus with 11 samples.

Results

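Leukocyte lineage genes are genes whose products mark, build or signal in white blood cells. A list of 36 of them was read by exact gene symbol from a table of endometrial gene expression in cows: 17 genes of T and natural killer (NK) cells, 3 of B cells, 11 of myeloid cells (monocytes, macrophages, granulocytes and dendritic cells) and 5 shared by most leukocytes. Each symbol was found in 1 row, and 33 of the 36 genes had a mean of at least 5 normalized counts over the 11 cows and were tested, as were 15081 of the 24616 rows of the table. By class, 16 of 17 T/NK genes, 1 of 3 B cell genes, 11 of 11 myeloid genes and 5 of 5 shared genes were tested. Just below the minimum lay MS4A1 with a mean of 0.961, and just above it CD79A with 5.45 and GZMA with 6.21.

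The table holds RNA-Seq of uterine biopsies from healthy multiparous Nelore beef cows (Bos indicus), which had been synchronized, inseminated at estrus (AI) and sampled on day 6 after AI. All 11 cows had the same treatment, and the groups were formed afterwards, from the diagnosis on day 30: 6 pregnant cows (P) and 5 non-pregnant cows (NP), each cow being 1 replicate and named by its number. The biopsy came from the horn opposite the ovary with the corpus luteum, so the groups differ by a later outcome and not by an applied factor. Cow P617 is labelled pregnant, but a supplement of the study names it among the non-pregnant cows; it was kept as P and results that depend on it are given without it. Reads on genes numbered 9290949 to 13569085 per cow, and 1 read was worth 0.784 to 1.14 normalized counts.

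T cells recognize antigen through a receptor whose signal passes through the CD3 chains and the kinases LCK and ZAP70, with CD4 or CD8 as co-receptor, and cytotoxic T and NK cells kill through granules of perforin and granzymes. Macrophages depend on signalling through the receptor CSF1R, take up debris through scavenger receptors and sense bacteria through CD14 and Toll-like receptors. The ruminant endometrium holds resident lymphocytes within and beneath its epithelium and macrophages in its stroma, and both are known to shift during early pregnancy.

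Most leukocyte genes had a higher mean in NP cows, but none of the 33 passed the test. The log2 fold change (NP over P, on log2(normalized count + 1)) was above 0 in 30 genes and below 0 in 3, or 90.9% above 0, where 50.2% of all genes tested were above 0. The median was 0.61 for the 33 genes, against 0.0018 over all genes tested. With limma, 0 of 33 genes had an adjusted p-value under 0.1 (range 0.323 to 0.998), and over all genes the percentage called was 0.0%. At an unadjusted p-value under 0.05, which 7.84% of all genes tested reached, 10 genes were higher in NP cows (30.3%; 5.49% of all genes tested) and 1 gene, CYBB, was higher in P cows (2.35% of all genes tested). On the recovered reads, edgeR and limma-voom also called 0 of the 33 genes, and DESeq2 called 1, GPR65, with a higher mean in NP cows (DESeq2 called 1.33% of all genes tested, and 1.13% with a higher mean in NP cows). In none of the 33 genes did the groups separate fully, as they did in 1.09% of all genes tested.

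**Figure D1:**
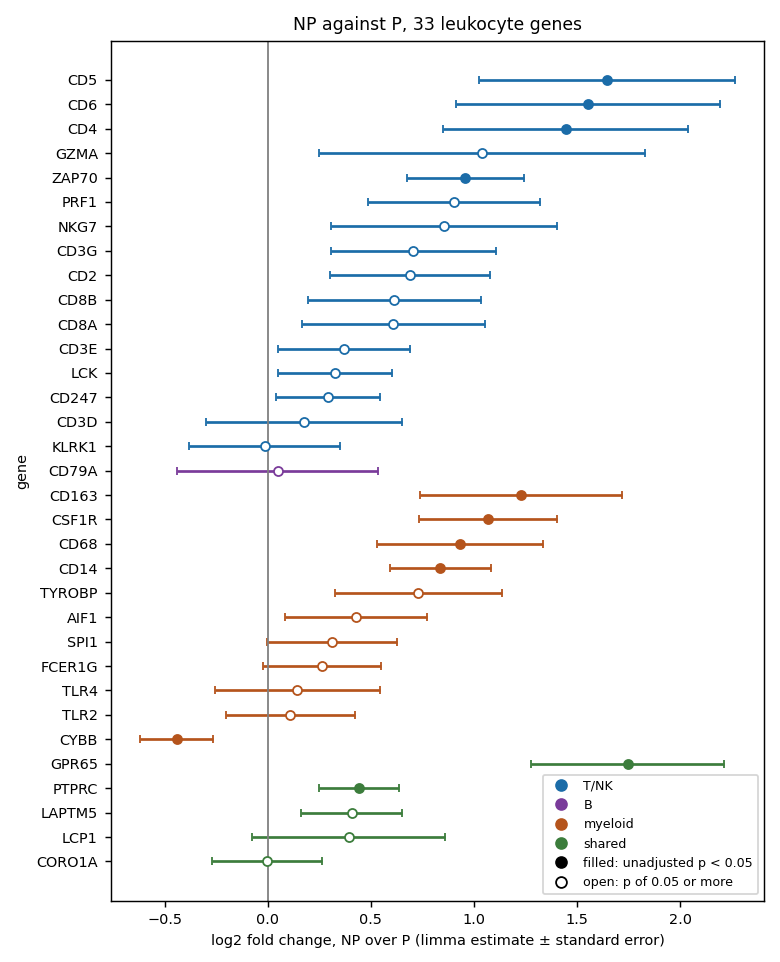
Log2 fold change of each leukocyte gene, NP over P, on the horizontal axis with the standard error from limma, grouped by class on the vertical axis; filled points have an unadjusted p-value under 0.05. Of the 33 genes, 30 lie to the right of 0 and 11 are filled, with CYBB filled on the left.

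These counts need some reservations. CD14 and GPR65 are in the list that the study called on these same cows, and GPR65 passed the minimum only through the NP cows (mean of 4.92 in P cows), so neither is independent evidence of a direction. Without both, 28 of 31 genes had a fold change above 0, with a median of 0.44. At an unadjusted p-value under 0.05, 8 genes were then higher in NP cows (25.8%, beside 5.49% of all genes tested). Without cow P617, 28 of 33 genes were above 0, with a median of 0.47, 7 such genes (21.2%, beside 6.18% of all genes in that fit) and 1 gene higher in P cows. Over all genes in that fit, 418 of 15081 were higher in P cows at this threshold. In bulk tissue, fewer cells of a type and less RNA per cell cannot be told apart, so each value below is an amount of RNA in the biopsy.

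The cows of a group differed widely. Cow NP2810 was the highest of the 11 cows in 15 of the 33 genes and among the 3 highest in 26, and cow NP856 was among the 3 highest in 24. In P cows, P904 was among the 3 highest in 14 genes and above the median cow in 29, while the other P cows were above the median cow in 4 to 10 genes. In NP cows, NP638 lay above the median cow in 8 genes and NP238 in 13. The summed normalized counts of the 33 genes ranged from 2792 to 5237 in P cows and from 3421 to 6378 in NP cows, which is 0.0211% to 0.0577% of a cow's reads on genes, and the groups overlapped.

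**Figure D2:**
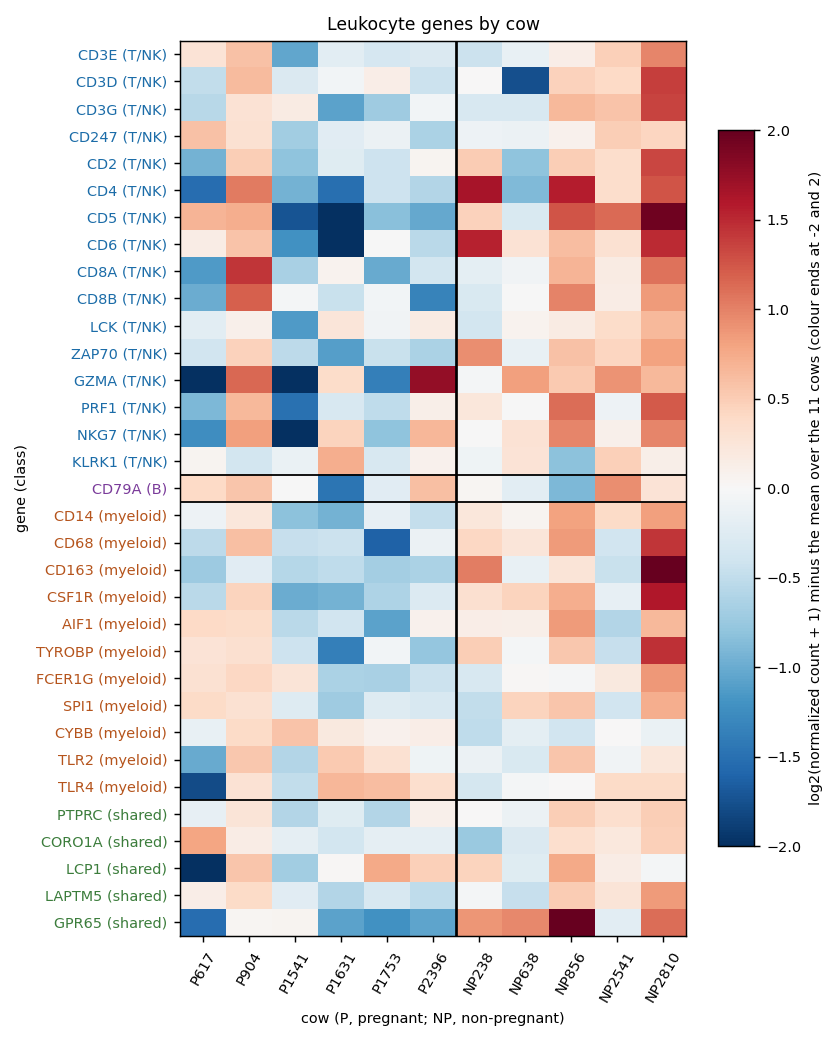
Each row is a leukocyte gene and each column a cow, with the colour giving log2(normalized count + 1) minus the gene's mean over the 11 cows. The columns of NP2810, NP856 and, to the left of the dividing line, P904 are mostly red, and those of NP638 and NP238 are mixed.

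The T/NK genes included those of the T cell receptor complex. CD3E (ENSBTAG00000015710), a signalling chain of that complex, had 141, 175, 56.1, 100.5, 91.6 and 94.5 normalized counts in cows P617, P904, P1541, P1631, P1753 and P2396. In cows NP238, NP638, NP856, NP2541 and NP2810 it had 86.0, 104, 128, 162 and 228. The groups overlapped over most of their range, and the log2 fold change was 0.37 ± 0.32 (SE; limma, unadjusted p = 0.271, adjusted p = 0.821). The log2 fold changes of its partner chains were 0.18 for CD3D, 0.71 for CD3G and 0.29 for CD247, the zeta chain. None of these chains had an unadjusted p-value under 0.05. The fold change of CD3D was -0.14 without cow NP2810, which with 106 normalized counts was the highest cow.

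ZAP70 (ENSBTAG00000005892), the kinase that binds the activated zeta chain, had 70.0, 127, 63.9, 42.3, 67.4 and 58.6 normalized counts in the P cows, in the order given above. In the NP cows it had 176, 83.2, 139, 124 and 161. Apart from P904, every P cow was below every NP cow. The mean ± SD was 71.6 ± 29.1 over the 6 P cows and 137 ± 35.9 over the 5 NP cows. NP cows exceeded P cows by 0.96 ± 0.28 (SE) on the log2 scale, with an unadjusted p of 0.00585 and an adjusted p of 0.371 in limma. Cow P904 decided the call: without it the log2 fold change was 1.14 and the adjusted p 0.0841, the only leukocyte gene of the 33 called by limma when a cow was left out, in a fit that called 171 genes of all tested. LCK, the kinase that starts the signal at the co-receptors, had a log2 fold change of 0.33 (adjusted p = 0.818).

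The co-receptor genes rested on different depths. CD4 (ENSBTAG00000003255), the co-receptor of helper T cells, had only 2.26, 18.2, 3.87, 2.28, 6.04 and 5.25 normalized counts in the P cows and 28.3, 4.06, 26.9, 10.98 and 21.4 in the NP cows. The groups overlapped through P904 and NP638, while the other 4 NP cows lay above the other 5 P cows. CD4 had a log2 fold change of 1.45 ± 0.60 (SE; unadjusted p = 0.0325, adjusted p = 0.570), and the unadjusted p stayed under 0.05 in 5 of the 11 fits that left out a cow. CD8A (ENSBTAG00000021141), a co-receptor chain of cytotoxic T cells, had 35.02, 212, 49.4, 82.2, 38.3 and 60.4 normalized counts in the P cows and 67.8, 74.1, 126, 87.8 and 167 in the NP cows. Cow P904 was the highest of all 11 cows in CD8A, as in its partner chain CD8B (385 normalized counts, with 65.6 to 164 in the other P cows and 136 to 334 in the NP cows). The log2 fold changes were 0.61 ± 0.44 (SE) for CD8A and 0.61 ± 0.42 for CD8B, with adjusted p-values of 0.796 and 0.776.

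CD5 and CD6 encode related surface glycoproteins of T cells that tune the strength of the receptor signal. CD5 (ENSBTAG00000013730) had 24.9, 25.9, 3.87, 2.28, 8.05 and 7.001 normalized counts in the P cows and 21.2, 12.2, 37.6, 34.5 and 61.2 in the NP cows. P617 and P904 lay among the NP cows and the other 4 P cows below all of them. CD5 had a log2 fold change of 1.65 ± 0.62 (SE; unadjusted p = 0.0216, adjusted p = 0.514), and its lowest P cow, P1631, had only 2 reads. CD6 (ENSBTAG00000018367) had 9.04, 12.5, 2.90, 0, 8.05 and 5.25 normalized counts in the P cows and 25.3, 10.1, 12.9, 10.2 and 24.5 in the NP cows. The groups overlapped only through P904, and NP238 and NP2810 stood above the rest. For CD6 the log2 fold change was 1.55 ± 0.64 (SE; unadjusted p = 0.0327, adjusted p = 0.572), and a count of 0, as in P1631, allows up to 3 reads. The adhesion receptor CD2 had a log2 fold change of 0.69 (adjusted p = 0.738).

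Genes of the cytotoxic granule had fold changes above 0 with wide errors. PRF1, which encodes perforin, ranged from 11.6 to 54.6 normalized counts in P cows (median 25.8) and from 32.2 to 82.6 in NP cows (median 40.5), with a log2 fold change of 0.90 ± 0.42 (SE; unadjusted p = 0.0514, adjusted p = 0.641). NKG7, a granule membrane protein, had a log2 fold change of 0.85 ± 0.55 (adjusted p = 0.770). GZMA, the granzyme A gene, ranged from 0 to 16.6 normalized counts in P cows and only from 4.05 to 8.63 in NP cows, with a log2 fold change of 1.04 ± 0.79 (adjusted p = 0.799) that depended on the test and on single cows: it was 0.27 with edgeR and with DESeq2, and 0.66 without P617 or without P1541. The P cows thus lay on both sides of the NP cows. GZMB, granzyme B (ENSBTAG00000010057), was at 0 in all 6 P cows and in 3 NP cows, with 4.05 normalized counts in NP238 and 1.02 in NP2810, and was not tested. Reads of this multigene family may be split between copies: a second row that carries GZMB with another locus (ENSBTAG00000039813) ranged from 6.78 to 69.0 normalized counts in P cows and from 13.3 to 110 in NP cows. KLRK1, which encodes the activating receptor NKG2D of NK cells, had a mean ± SD of 6.80 ± 2.43 normalized counts over the 6 P cows and 6.79 ± 2.34 over the 5 NP cows.

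In sum, 15 of the 16 T/NK genes tested had a fold change above 0, with a median of 0.70, and 4 (ZAP70, CD5, CD4 and CD6) had an unadjusted p-value under 0.05 (25.0%, beside 5.49% of all genes tested). Without cow NP2810 the median was 0.48, 14 genes were above 0 and 1 gene had such a p-value. That was 6.25% of the T/NK genes, near the 4.53% of all genes in that fit that were higher in NP cows at this threshold.

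B cell genes were near the limit of detection. CD79A (ENSBTAG00000001882), a signalling chain of the B cell receptor, ranged from 1.14 to 7.88 normalized counts in P cows (median 5.81) and from 2.15 to 10.2 in NP cows (median 5.06). Its log2 fold change was 0.049 ± 0.49 (SE; adjusted p = 0.987), and it turned below 0 without P1631, NP2541 or NP2810. CD79B (ENSBTAG00000044204), its partner chain, had 0.958 normalized counts in P904, 1.14 in P1631, 1.08 in NP856 and 0.784 in NP2541, which is 1 read in each, and 0 in the other cows. MS4A1 (ENSBTAG00000004580), the CD20 gene, had 0.958, 0.968, 1.14 and 1.75 normalized counts in P904, P1541, P1631 and P2396 and 2.03, 2.15 and 1.57 in NP638, NP856 and NP2541. The remaining 4 cows had 0, so a difference between the groups in CD79B or MS4A1 was not detectable at this depth.

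The myeloid genes were led by genes of monocytes and macrophages. CD14 (ENSBTAG00000015032), the co-receptor for bacterial lipopolysaccharide, had 134, 170, 81.3, 74.2, 128 and 103 normalized counts in the P cows and 168, 149, 253, 188 and 256 in the NP cows. P904 was the only P cow inside the NP range. The mean ± SD was 115 ± 35.9 over the 6 P cows and 203 ± 49.0 over the 5 NP cows. This gave a log2 fold change of 0.84 ± 0.25 (SE), with an unadjusted p of 0.00542, an adjusted p of 0.368 in limma and an adjusted p of 0.109 in DESeq2.

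CSF1R (ENSBTAG00000012771), the growth factor receptor on which macrophages depend, had 96.0, 190, 69.7, 71.9, 90.6 and 116 normalized counts in the P cows and 174, 190, 230, 124 and 425 in the NP cows. Again P904 was the only P cow inside the NP range, and NP2810 stood far above the others. CSF1R had a log2 fold change of 1.07 ± 0.33 (SE; unadjusted p = 0.00783, adjusted p = 0.406) and lay between 0.81 and 1.26 when each cow was left out. CD68 (ENSBTAG00000000133), a lysosomal glycoprotein of macrophages, had 41.8, 92.9, 43.6, 44.5, 19.1 and 56.0 normalized counts in the P cows and 80.9, 72.0, 110, 46.3 and 164 in the NP cows. The groups overlapped through P904, P2396 and NP2541, and the log2 fold change was 0.93 ± 0.40 (SE; unadjusted p = 0.0398, adjusted p = 0.604).

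CD163 (ENSBTAG00000019669), the haemoglobin scavenger receptor of tissue macrophages, had nearly the same value in every P cow: 14.7, 21.1, 16.5, 17.1, 15.1 and 15.8 normalized counts. The NP cows had 51.6, 22.3, 30.1, 18.0 and 163, and only NP2541 lay within the P range. The mean ± SD was 16.7 ± 2.32 over the 6 P cows and 57.0 ± 60.7 over the 5 NP cows. On the log2 scale the difference was 1.23 ± 0.49 (SE; unadjusted p = 0.0279, adjusted p = 0.554). Without NP2810 it was 0.73.

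CYBB (ENSBTAG00000019953), the catalytic subunit of the phagocyte NADPH oxidase, ran the other way. It had 93.8, 135, 155, 119, 110 and 114 normalized counts in the P cows and 72.8, 90.3, 79.6, 104 and 94.8 in the NP cows. All P cows but P617 lay above every NP cow. The mean ± SD was 121 ± 21.3 over the 6 P cows and 88.4 ± 12.4 over the 5 NP cows. Its log2 fold change was -0.44 ± 0.18 (SE; unadjusted p = 0.0281, adjusted p = 0.554), and the unadjusted p stayed under 0.05 in 7 of the 11 fits that left out a cow.

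**Figure D3:**
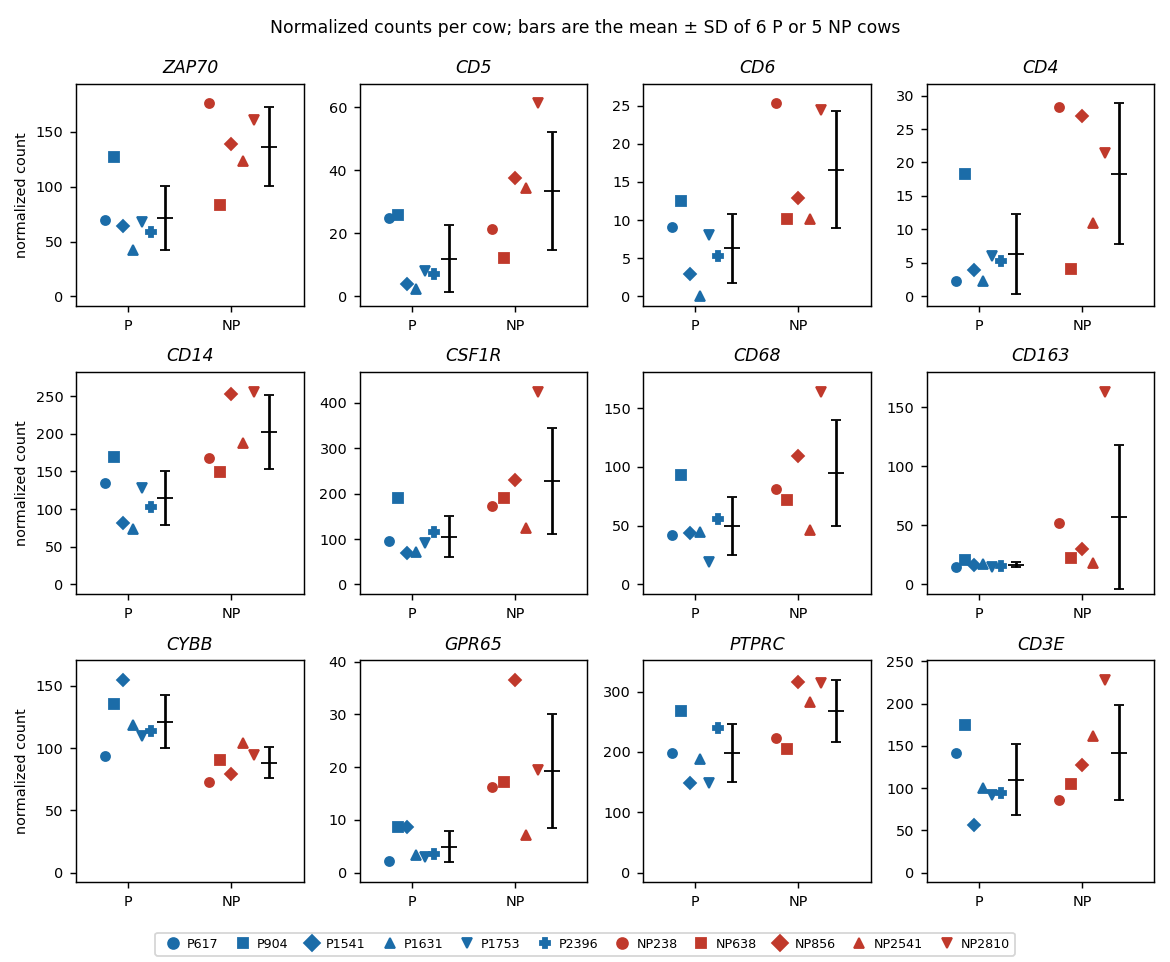
Normalized counts (vertical axis) of 12 leukocyte genes in each P cow (blue) and NP cow (red), with the cow given by the marker and the mean ± SD by the black bar. P904 lies within or near the NP range in the panels of ZAP70, CD4, CD14 and CSF1R, NP2810 stands above the other NP cows in CSF1R, CD68 and CD163, and CYBB is lower in NP cows.

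Adaptor and transcription factor genes of myeloid cells did not reach an unadjusted p of 0.05. TYROBP, the signalling adaptor of activating myeloid receptors, had a log2 fold change of 0.73 ± 0.40 (SE; adjusted p = 0.732). AIF1, an actin-binding protein of macrophages, had 0.43, SPI1, the transcription factor PU.1, had 0.31, and FCER1G, the shared Fc receptor chain, had 0.26. In sum, 10 of the 11 myeloid genes had a fold change above 0, with a median of 0.43. At an unadjusted p-value under 0.05, 4 of the 11 (CD14, CSF1R, CD68 and CD163) were higher in NP cows (36.4%, beside 5.49% of all genes tested). Without cow NP2810, the highest cow in 7 of the 11, the median was 0.32 and 3 genes were so (27.3%, beside 4.53% of all genes in that fit). Without P617, 8 of the 11 were above 0.

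The Toll-like receptors TLR2 and TLR4, which endometrial epithelium and stroma are also known to express, were lowest in cow P617. TLR4 ranged from 142 to 787 normalized counts in P cows and from 388 to 651 in NP cows, with the 142 in P617. TLR2 ranged from 35.02 to 104 in P cows and from 57.8 to 105 in NP cows, with the 35.02 also in P617. Their log2 fold changes were 0.14 ± 0.40 and 0.11 ± 0.31 (SE), and without P617 both were below 0, at -0.20 and -0.082. In the same cow the summed counts of 12 epithelial markers were 2809, with 11259 to 30443 in the other cows; their part in these values was not tested.

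The genes shared by leukocytes differed among themselves. PTPRC (ENSBTAG00000023144), which encodes the common leukocyte antigen CD45, had 199, 267, 149, 188, 149 and 239 normalized counts in the P cows and 224, 205, 315, 282 and 315 in the NP cows. P904 and P2396 overlapped with NP238 and NP638, and the other 3 NP cows lay above all P cows. The mean ± SD was 199 ± 47.7 over the 6 P cows and 268 ± 51.4 over the 5 NP cows, a log2 fold change of 0.44 ± 0.20 (SE), with an unadjusted p of 0.0430 and an adjusted p of 0.613 in limma.

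GPR65 (ENSBTAG00000012737), a proton-sensing receptor of lymphoid and myeloid cells, had 2.26, 8.62, 8.71, 3.43, 3.02 and 3.50 normalized counts in the P cows and 16.2, 17.2, 36.6, 7.06 and 19.4 in the NP cows. Only NP2541 lay within the range of the P cows. Its log2 fold change was 1.75 ± 0.47 (SE), with an unadjusted p of 0.00302 and an adjusted p of 0.323 in limma and an adjusted p of 0.0654 in DESeq2. It lay between 1.48 and 2.04 when each cow was left out.

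The remaining shared genes were closer to 0. LAPTM5, a lysosomal membrane protein of blood cells, had a log2 fold change of 0.41 ± 0.24 (SE; adjusted p = 0.759). LCP1, the actin-bundling protein L-plastin, had 99.4 normalized counts in P617 and 278 to 765 in the other cows; its log2 fold change was 0.39 ± 0.47 (SE), and -0.0058 without P617. CORO1A, an actin-binding coronin of leukocytes, had a mean ± SD of 169 ± 57.2 normalized counts over the 6 P cows and 169 ± 53.0 over the 5 NP cows, and P617 was its highest cow with 280. A log2 fold change of -0.0049 for CORO1A turned just above 0 under both other scalings tried, TMM and upper quartile.

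The genes were also set against each other within a cow, and 5 ratios were tested by exact permutation (two-sided, on log2 ratios of normalized count + 1) over the 462 splits of the cows, whose smallest possible p-value is 0.00216. The ratio of CD8A to CD4 was 15.5, 11.6, 12.8, 36, 6.33 and 11.5 in the P cows and 2.39, 18.3, 4.68, 8 and 7.81 in the NP cows. The NP cows other than NP638 lay below the P cows other than P1753, but the mean difference of -0.84 on the log2 scale was not beyond the spread among cows (exact permutation p = 0.147, adjusted p = 0.245 over the 5 ratios). It ranged from -0.49 without NP238 to -1.15 without NP638 (adjusted p = 0.143, exact permutation) and was -0.45 with a pseudocount of 5. For CD14 over CD3E the difference was 0.47 (exact permutation p = 0.0714, adjusted p = 0.179), with ratios of 0.739 to 1.45 in P cows and 1.121 to 1.98 in NP cows.

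The ratio of GPR65 to PTPRC differed by 1.30 on the log2 scale (exact permutation p = 0.0238, adjusted p = 0.119), with ratios of 0.0114 to 0.0584 in P cows and 0.0250 to 0.116 in NP cows. With a pseudocount of 5 the difference was 0.79 (exact permutation, adjusted p = 0.173), and when each cow was left out it lay between 1.104 and 1.62 (adjusted p of 0.310 without NP856 and 0.0714 without NP2541). GPR65 was called by the study on these cows and passed the minimum only through the NP cows (mean of 4.92 in P cows), so this ratio is not independent evidence either. CD163 over CD68 differed by 0.30 (exact permutation p = 0.470, adjusted p = 0.587), or 0.027 without NP2810, and CD3E over PTPRC by -0.074 (exact permutation p = 0.734, adjusted p = 0.734).

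Other genes of the same cell types, from lists drawn up from general knowledge, were read from the same fit. Of 114 rows of such genes tested, 101 had a log2 fold change above 0 (88.6%, beside 50.2% of all genes tested), with a median of 0.49. Of them, 25 reached an unadjusted p-value under 0.05 with a higher mean in NP cows (21.9%, beside 5.49%) and 0 with a higher mean in P cows (2.35% of all genes tested). At an adjusted p under 0.1, limma called 0 and DESeq2 5, all with a higher mean in NP cows (beside 1.13% of all genes tested). Of the 114 genes, 13 passed the minimum through the cows of a single group, among them 4 of the 25, so these had to differ; without the 13, 90 of 101 genes were above 0, with a median of 0.48, and 21 of 101 (20.8%) reached an unadjusted p-value under 0.05 with a higher mean in NP cows. Among others, IL7R, TLR7, MILR1, INPP5D, HCLS1, ARHGAP30 and APBB1IP are in the list the study called on these cows and are not independent evidence. By class, 22 of 27 T/NK genes, 7 of 12 B cell genes, 41 of 42 myeloid genes and 31 of 33 shared genes were above 0, with medians of 0.49, 0.038, 0.66 and 0.49. The B cell direction depended on the test: with edgeR and DESeq2, 4 of the 12 genes were above 0, with medians of -0.21 and -0.22.

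**Figure D4:**
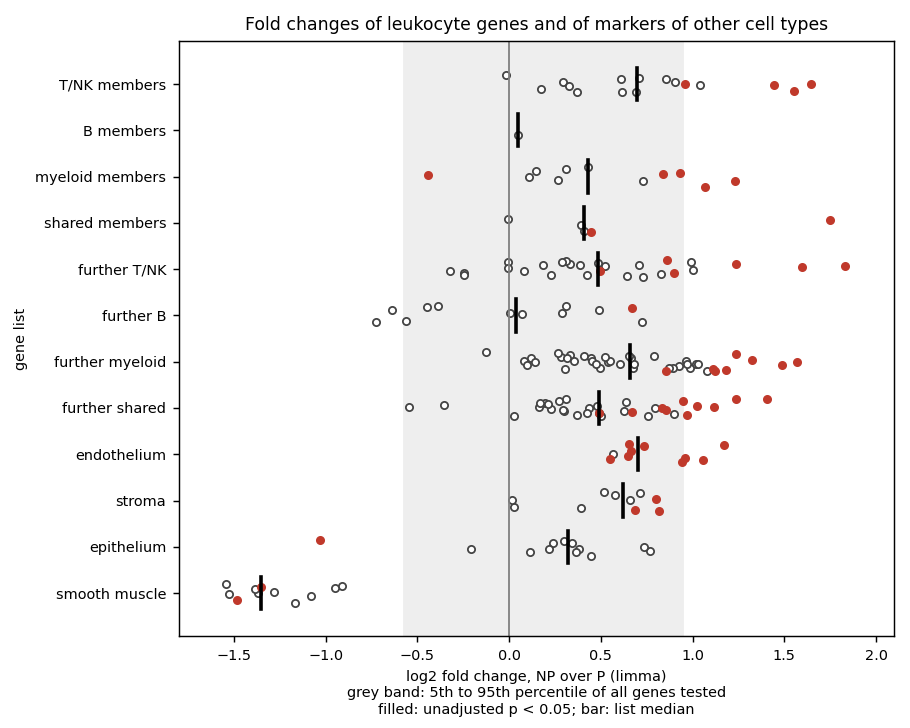
Log2 fold changes, NP over P, of single genes (points) by list, with the list median as a bar; the grey band spans the 5th to 95th percentile of all genes tested and filled points have an unadjusted p-value under 0.05. Both T/NK and both myeloid lists lie mostly to the right of 0, the B cell lists lie around 0, the endothelial list lies to the right and the smooth muscle list to the left.

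Among these further genes, the groups were without overlap in INPP5D and MILR1, 2 of the 114, while the NP cows all exceeded the P cows in 0.855% of all genes tested. INPP5D (ENSBTAG00000020173), which encodes the lipid phosphatase SHIP1 that restrains signalling in blood cells, had 63.3, 63.2, 47.4, 64.0, 61.4 and 76.1 normalized counts in the P cows and 111, 93.3, 116, 125 and 169 in the NP cows. Its log2 fold change was 0.95 ± 0.20 (SE), with adjusted p-values of 0.259 in limma and 9.63e-04 in DESeq2. MILR1 (ENSBTAG00000007409), an inhibitory receptor of mast cells, had 12.4, 17.2, 6.78, 6.85, 5.03 and 10.5 normalized counts in the P cows and 29.3, 24.3, 23.7, 21.2 and 41.8 in the NP cows. In both genes NP2810 was the highest cow. MILR1 had a log2 fold change of 1.49 ± 0.35 (SE), with adjusted p-values of 0.264 in limma and 0.0221 in DESeq2.

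Of the other further genes with the smallest p-values, those of T cells included IL7R, the interleukin-7 receptor, with a log2 fold change of 1.83, and the integrin chain gene ITGAL, with 1.24. IL7R had 5.65, 1.92, 0.968, 1.14, 8.05 and 3.50 normalized counts in the P cows and 22.3, 7.10, 14.0, 23.5 and 6.12 in the NP cows, so that only P1753 lay inside the NP range. A row listed as FASLG, the ligand that triggers cell death through FAS, together with another locus had a log2 fold change of 1.597. Those of myeloid cells were TLR7, a receptor for single-stranded RNA, with 1.121, TREM2, a lipid-sensing receptor of macrophages, with 1.57, and the SRC family kinase gene FGR, with 1.11. Shared by leukocytes were APBB1IP, an adaptor for integrin activation, with 1.41, ARHGAP30 with 0.97 and HCLS1, a cortactin-like signalling protein, with 0.67. In limma the adjusted p-values of these genes lay between 0.264 for APBB1IP and 0.487 for FGR and FASLG, and DESeq2 called TLR7 and APBB1IP among them. IL7R, TREM2 and the FASLG row passed the minimum only through the NP cows, with means of 3.54, 4.68 and 3.101 normalized counts in P cows.

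Markers of other cell types varied between the groups and among single cows. All 10 endothelial markers had a fold change above 0, with 9 at an unadjusted p-value under 0.05; their summed counts were 5147 to 15534 in P cows and 9353 to 17139 in NP cows. P904, the P cow with the highest leukocyte sum, also had the highest endothelial sum of the P cows. All 11 smooth muscle markers had a fold change below 0, with 2 at an unadjusted p-value under 0.05; their sums were 86752 to 678850 in P cows and 43381 to 292700 in NP cows. P617 and P1541 had the highest muscle sums and the lowest leukocyte sums of the P cows, and NP638 had the highest muscle sum and the lowest leukocyte sum of the NP cows. The sum of P617 does not describe all its genes. It was the highest of the 11 cows in 2 of the 33 genes, CD247 and CORO1A, and the lowest or tied for lowest in 9. Among the 9 were TLR4 (142 normalized counts, with 353 to 787 in the other cows) and LCP1 (99.4, with 278 to 765), which weigh heavily in a sum. Without P617 and P1541, 28 of the 33 leukocyte genes still had a fold change above 0, with a median of 0.41. At an unadjusted p-value under 0.05, 6 were then higher in NP cows (18.2%, beside 7.14% of all genes in that fit) and 2, CYBB and TLR4, higher in P cows. Over all genes in that fit, 604 of 15081 were higher in P cows at this threshold.

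All 10 stromal markers had a fold change above 0, with sums of 135340 to 415540 in P cows and 279330 to 377780 in NP cows, and 10 of 12 epithelial markers did. For the epithelial markers the count was 2 of 12 without P617. Red blood cell markers summed to at most 13.1 normalized counts in any cow, and 2 of their 6 rows, those of SLC4A1 and of an alpha globin copy, were at 0 in all cows. The part of endothelium, muscle, stroma and epithelium in the values of the leukocyte genes was not tested.

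**Figure D5:**
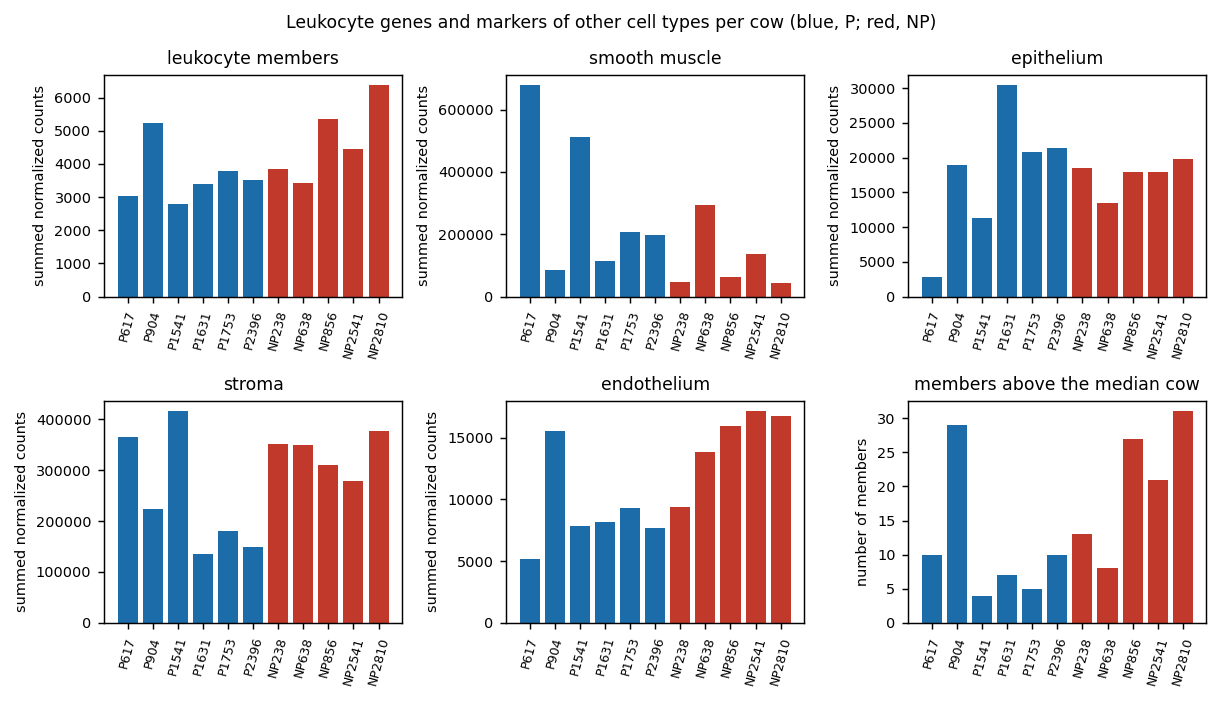
Summed normalized counts per cow of the 33 leukocyte genes and of the markers of smooth muscle, epithelium, stroma and endothelium, and the number of leukocyte genes in which a cow lies above the median cow (blue, P; red, NP). P617 has 678850 counts of muscle markers and 2809 of epithelial markers, and P904 resembles the NP cows in its leukocyte and endothelial sums.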

How the data were processed

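The authors prepared TruSeq libraries from endometrial biopsies of 11 cows, mapped the filtered reads with Bowtie2 2.1.0 to the UMD 3.1 assembly, counted them per gene with HTSeq 0.5.4p2 and normalized them with DESeq2 1.12.1 (CASAVA 1.8.2 was also named in the submitters' processing notes). The deposited values are normalized counts per gene and cow, a signal that is never negative. Use of strand in counting is not given in the sources used here, so overlapping genes and gene families are uncertain. Since 100% of the values in each cow came within 7.18e-05 reads of a whole multiple of the smallest, reads were recovered.

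Genes with a mean of at least 5 were tested with limma 3.58.1 (lmFit, eBayes with trend) in R 4.3.3 on log2(value + 1), group only, with the Benjamini-Hochberg adjustment at 0.1. A pseudocount of 1 understates changes of low genes. Alternatives were edgeR 4.0.16, DESeq2 1.42.0 and limma-voom on recovered reads, TMM and upper-quartile scaling, pseudocounts of 0.5 and 5, no minimum, a minimum of 10, leaving out each cow, and leaving out P617 and P1541 together; DESeq2 without these 2 cows was added after seeing the data. On simulated data with 200 of 15081 genes changed, limma recovered 65% of them. It recovered 40.5% at a log2 fold change of 1 and 82.8% at 2. Recovery at smaller fold changes, such as the median of 0.61 of the 33 leukocyte genes, was not tested. In the simulated data, unchanged genes made up 9.1% of the calls of limma and 32.1% of those of DESeq2. Whether these rates hold for the biopsies was not tested.

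The members and all gene lists were chosen with earlier results of these data known. Every member is accounted for: values per cow are given for those with an unadjusted p under 0.05 and for PTPRC, CD3E, CD4, CD8A, GZMB, CD79B, MS4A1, CD14, CD68, CD163 and CSF1R. Of the further genes the 12 with the smallest p were to be named, and 1 of them is not reported here. A ratio of CD79B to CD3E had been planned and was left out because CD79B was under the minimum. For the members the symbol had to match exactly; rows that join several symbols were read for the other lists. Genome coordinates and sequences are not given.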

Additional observations from a re-analysis of the deposited data

Results flagged for a closer look

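Single cows stood apart from the rest of their group in 7 of 76 sets of values examined by Dixon's test (9.21%). A chance rate of about 1 in 20 holds for independent sets of normally distributed values. The flagged values are untransformed counts, and genes of a cell type can vary together in a cow, so an excess over chance is not shown. The set comprised each tested member in the P cows and in the NP cows and the ratios. P904 accounted for 4 of the 7, all T cell genes in P cows: CD4 with 18.2 normalized counts (next highest 6.04), CD8A with 212 (next 82.2), CD8B with 385 (next 164) and ZAP70 with 127 (next 70.0). P617 stood apart in CORO1A with 280 normalized counts (next 179) and P1631 in KLRK1 with 11.4 (next 7.001). In NP cows, NP2810 stood apart in CD163 with 163 normalized counts (next 51.6).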

How the results depend on the processing

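Of the 45 genes named with a fold change, 37 kept their direction in all 22 settings, as did 25 of the 33 members. No paired analysis was possible because the cows of the P and NP groups share no replicate number. Over all genes tested, limma called 0 genes, DESeq2 201, limma without P617 and P1541 17 and DESeq2 without both 496; leaving out each cow gave 0 to 171 (171 without P904). Of the 33 members, 1 was called by DESeq2 (GPR65), 1 without P904 (ZAP70) and 1 by DESeq2 without P617 and P1541 (GPR65). The count of members with an unadjusted p-value under 0.05, which 7.84% of all genes tested reached, was 11. It ranged from 6 to 14 when each cow was left out (6 without P1541, NP238 or NP2810, 7 without NP856). Members with such a p-value and a higher mean in NP cows were 15.2% without NP2810, beside 4.53% of all genes in that fit. Without P904 they were 39.4%, beside 6.88%. ZAP70, CD14, CSF1R and GPR65, 4 of the 11, stayed under 0.05 in all 11 fits that left out a cow. The matching share over all genes is not given here. CD14 and GPR65 were called by the study on these cows, and GPR65 passed the minimum only through the NP cows. The count of further genes with an unadjusted p-value under 0.05 was 25. It ranged from 16 (without NP2810) to 33 (without P904) when each cow was left out. Further genes with such a p-value and a higher mean in NP cows were 21.9% in the main fit, beside 5.49% of all genes tested. They were 13.2% without NP2810, beside 4.53% of all genes in that fit, and 28.1% without P904, beside 6.88%. The share over all genes was thus also highest without P904 among these 3 fits. The ratio of CD3E to PTPRC, NP minus P, ranged from -0.20 to 0.024 on the log2 scale when each cow was left out.

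Genes whose log2 fold change was near 0 turned direction. KLRK1 was 0.023 with edgeR, 0.026 with DESeq2 and 0.024 with limma-voom, and ranged from -0.14 to 0.19 when each cow was left out. CORO1A was 0.017 with edgeR, 0.0047 with DESeq2, 0.021 with limma-voom, 0.0090 with TMM scaling, 0.0050 with upper-quartile scaling, 0.15 without P617 and P1541 and 0.21 with DESeq2 without both, and ranged from -0.12 to 0.18 when each cow was left out. TLR4 was -0.021 with edgeR, -0.030 with DESeq2, -0.40 without P617 and P1541 and -0.37 with DESeq2 without both. In the same fits without both cows, TLR2 was -0.26 and -0.25, LCP1 -0.24 and -0.21, and GZMA -0.30 with DESeq2. When each cow was left out, TLR4 ranged from -0.20 (without P617) to 0.29, TLR2 from -0.082 (without P617) to 0.23, LCP1 from -0.0058 (without P617) to 0.58, CD79A from -0.24 (without P1631) to 0.28 and CD3D from -0.14 (without NP2810) to 0.64. The cause was not tested. Low counts limit CD4, CD5, CD6, GZMA, KLRK1, CD79A and GPR65, which rest on a few reads in some cows.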

Other observations

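The following genes are from the further lists and were chosen after their values were seen. The neutrophil alarmin genes S100A8, S100A9 and S100A12, whose proteins are released by activated granulocytes, were high in a cow of each group. S100A8 had 304 normalized counts in P617 and 116 in NP638, with 7.88 to 73.7 in the other cows. S100A12 had 525 in P617 and 318 in NP638, with 9.63 to 154 in the other cows, and S100A9 had 154 and 107, with 2.63 to 38.4. Their log2 fold changes, NP over P, were 0.52, 0.48 and 1.02, with adjusted p-values of 0.911, 0.924 and 0.821 in limma.

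Other subunits of the phagocyte NADPH oxidase, the complex of CYBB, were also measured. The log2 fold change was 1.33 for NCF4 (unadjusted p = 0.0305, adjusted p = 0.564), 0.66 for NCF1 and 0.12 for CYBA, the membrane partner of CYBB, which had 431 to 682 normalized counts in P cows and 466 to 709 in NP cows. NCF4 had 2.26 to 15.3 normalized counts in P cows and 4.70 to 21.5 in NP cows, and the groups overlapped.

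Genes of antibody-secreting cells were detected in every cow. IGJ, the joining chain of IgA and IgM, ranged from 168 to 1126 normalized counts in P cows and from 227 to 758 in NP cows, and MZB1, a chaperone of antibody assembly, from 17.1 to 33.5 and from 10.2 to 37.7. Their log2 fold changes were -0.56 and -0.45, with adjusted p-values of 0.823 and 0.799 in limma. CPA3, a protease of mast cells, had 69.9 normalized counts in P904, 58.1 in NP2810, 41.5 in NP238, 34.4 in NP856 and 24.5 in P2396, and 0 to 7.05 in the other cows.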
